A study of Saccharomyces cerevisiae with 161 samples.

Results

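The Red1-dense bins were stretches of the longer budding yeast chromosomes that lay mostly under peaks of Red1, a structural protein of the meiotic chromosome axis. They were found by cutting the 13 chromosomes other than I, III and VI into 5-kb bins from coordinate 0 and keeping each bin of which wild-type Red1 peaks covered at least 60%. Of the 2202 bins on these chromosomes 279 were dense, out of 2372 bins on all 16 chromosomes. The other 1923 bins of the 13 longer chromosomes served as the comparison.

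In meiotic prophase a protein core, the axis, forms along the length of each chromosome and gathers its DNA. Rec8 is the meiotic subunit of cohesin, the ring complex that holds sister chromatids together, and it recruits axis proteins to the places where it resides. Red1 is a filament-forming axis protein, and Hop1 is its HORMA-domain partner, which promotes double-strand break formation and repair from the homologous chromosome.

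The series held 161 samples, mostly of mutants and other assays that were not analysed here. The values below come from chromatin immunoprecipitation and sequencing (ChIP-seq) of wild-type SK1 cells, a strain background that enters meiosis synchronously, at 3 h after meiotic induction. The labels list 4 Red1, 4 Hop1 and 2 Rec8 samples. They name an anti-HA antibody for Rec8 and give its strain by number only, so a tag on Rec8 is read from the antibody, and the study's methods also list an antibody against Rec8 itself. A strain with Smc4-Pk9 gave 1 Red1 and 1 Hop1 sample, which shared 1 input library, whereas Rec8 had inputs of its own. Each protein had 1 peak list called on its combined samples, with no read counts, so sequencing depth is unknown and no difference could be set against the spread between replicates. All comparisons are therefore descriptions of these lists, with no test, and the spread given is that between bins. Coordinates are those of the lists, on the SK1 assembly, and count from 1.

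The lists held 1571 Red1, 1514 Hop1 and 1592 Rec8 peaks and 2385 Red1 summits, of which 1479 Red1 peaks and 2155 summits were on the longer chromosomes. The dense bins made up 12.7% of the bins, the share set by the rule itself. They comprised 1395 kb and held 1077 kb of Red1-covered sequence, against 1958 kb in the 9615 kb of other bins. A median of 74.0% of a dense bin lay under Red1 peaks (quartiles 65.0 and 87.3%), against 17.5% of an other bin. Most dense bins held a broad block of Red1 rather than a row of small peaks, since in 225 of the 279 a single Red1 peak covered at least 60% of the bin. Red1 peaks covered 38 bins completely. Because Red1 coverage chose the bins, these values describe the choice.

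The threshold fell within a continuous range of coverage. Just inside it, the bin at chromosome XVI from 145001 to 150000 was 60% covered and that at XII from 50001 to 55000 was 60.06% covered. Just outside it, bins on chromosome IV from 1075001 to 1080000 and from 1110001 to 1115000 were each 59.98% covered.

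Hop1 peaks were present in every dense bin and covered most of the typical one. A median of 72.0% of a dense bin lay under Hop1 peaks (quartiles 60.5 and 84.1%), against 15.7% of an other bin (quartiles 0 and 35.3%). Hop1 covered at least 60% of the bin in 213 dense bins (76.3%) and in 59 other bins (3.07%), where 12.4% of all bins passed this mark. The lowest Hop1 coverage of any dense bin was 22.8%. On all 13 chromosomes the dense bins had the higher Hop1 median, with medians of 64.4% on XII to 81.5% on X, against 10.8 to 18.4% in other bins. Read the other way, 272 bins were covered to at least 60% by Hop1, and the 213 shared bins were 76.3% of the Red1 set and 78.3% of the Hop1 set.

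Rec8 was also more extensive in dense bins, but it varied more among them. A median of 54.4% of a dense bin lay under Rec8 peaks (quartiles 40.2 and 67.8%), against 15.6% of an other bin (quartiles 0 and 33.4%). Rec8 covered at least 60% of 109 dense bins (39.1%) and of 69 other bins (3.59%), where 8.08% of all bins did so. The dense bins again had the higher median on all 13 chromosomes, with medians of 44.3% on IX to 71% on V, against 10.3 to 19.8% in other bins. No Rec8 peak was present in 2 dense bins and in 562 other bins. Of 178 bins with Rec8 at 60% or more, the shared bins were 61.2%, compared with 39.1% of the Red1 set.

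**Figure D1:**
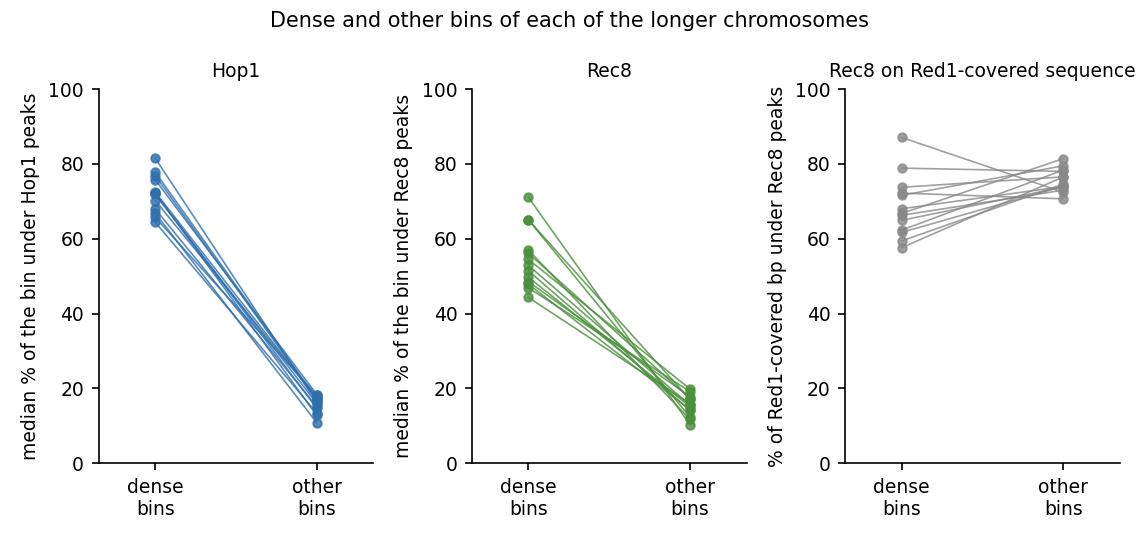
Each point is 1 of the 13 longer chromosomes and lines join its dense bins to its other bins; the vertical axes give the median % of a bin under Hop1 peaks, the same for Rec8, and the % of Red1-covered sequence that also lay under Rec8 peaks. Hop1 and Rec8 coverage was higher in dense bins on all 13 chromosomes, while the Rec8 share of Red1-covered sequence was lower in dense bins on 10 of them.

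Dense bins fell into 4 kinds by whether Hop1 and Rec8 also covered 60% of them. Both did so in 94 bins (33.7%), compared with 11 other bins (0.572%) and 4.77% of all bins. The most frequent kind, with 119 bins (42.7%), had Hop1 but not Rec8 at this level. Rec8 without Hop1 accounted for 15 bins (5.38%), and in 51 bins (18.3%) neither protein reached 60%. Of all bins, Hop1 reached 60% in 12.4% and Rec8 in 8.08%, each with or without the other, so most bins had neither. With both in 4.77% of all bins, Hop1 alone made up the rest of the 12.4% and Rec8 alone the rest of the 8.08%. Hop1 alone was thus more frequent in dense bins (42.7%) than in all bins, and neither was less frequent (18.3%). Rec8 alone, at 5.38% of dense bins, differed less in percentage points from its share of all bins. In 3 bins, singled out after their values were seen, all 3 proteins covered the whole 5 kb. These were IV from 385001 to 390000, V from 565001 to 570000 and XVI from 530001 to 535000.

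Dense bins with little Rec8 varied in Hop1. Rec8 covered under 20% of 18 dense bins (6.45%) and of 1069 other bins (55.6%), where 49.4% of all bins were this low. Among these, Hop1 covered at least 60% in 12 of the 18 dense bins and in 6 of the 1069 other bins. Of the 18, the lowest Hop1 coverage was 38.8%, on XV from 675001 to 680000, and 39.1%, on IV from 1255001 to 1260000, both picked out after their values were seen. The dense bin at XI from 55001 to 60000 had no Rec8 peak, yet Hop1 peaks covered 100% of it and Red1 peaks 71.2%, with 3 Red1 summits. At XII from 1020001 to 1025000, the last bin of that chromosome, there was likewise no Rec8 peak, with 60.3% under Red1, 60.2% under Hop1 and 4 summits. The last peak of any list on XII ends at 1023499, so this bin reaches past the lists, which lowers its covered shares. The next lowest in Rec8, XV from 770001 to 775000, had 3.9% under Rec8, 85.5% under Hop1 and 76.8% under Red1.

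Few dense bins had little Hop1. Hop1 covered under 40% of 10 dense bins, where 71.6% of all bins were this low. The 3 lowest were VII from 15001 to 20000 with 22.8% under Hop1, IV from 1130001 to 1135000 with 29.5%, and XIV from 525001 to 530000 with 31.5%. Rec8 exceeded Hop1 in each of them, at 41.6, 42.1 and 40% in that order. Rec8 covered more of the bin than Hop1 in 54 of the 279 dense bins and in 649 of the 1923 other bins, where 31.9% of all bins had this order.

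Base by base, Red1 in dense bins was accompanied by Hop1 somewhat more often, and by Rec8 somewhat less often, than Red1 elsewhere. Hop1 peaks overlay 89.5% of Red1-covered sequence in dense bins and 85.3% in other bins, with the higher share in dense bins on 12 of 13 chromosomes and IV as the exception. Rec8 peaks overlay 67.4% of Red1-covered sequence in dense bins and 76.2% in other bins, with the lower share in dense bins on 10 of 13 chromosomes and V, X and XVI as the exceptions. In 2500-bp bins the order turned, to 74.6% in dense bins and 70.6% in other bins. A lower share is also seen when bins are chosen on Rec8: Red1 peaks overlay 77.6% of Rec8-covered sequence in bins with Rec8 at 60% or more, against 84.4% in the remaining bins. How far the choice of bins on Red1 sets the Rec8 share was not tested.

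The Red1-covered sequence that lacked Rec8 was still mostly under Hop1 peaks. It amounted to 351 kb in dense bins and 467 kb in other bins, and Hop1 covered 74.9% of it in dense bins and 60.7% in other bins. Where Rec8 was present, Hop1 covered 96.5% of Red1-covered sequence in dense bins and 93.0% in other bins. Red1 in turn covered 97.0% of Rec8-covered sequence in dense bins and 77.2% in other bins. Red1 coverage chose the bins, however, and was 77.2% of all sequence in dense bins and 20.4% in other bins. The higher Red1 share in dense bins is therefore partly built into the rule.

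Bins were next arranged by Red1 coverage in steps of 20 percentage points, the lower 3 steps holding the other bins and the upper 2 the dense bins. Median Hop1 coverage was 0, 29.1, 47.3, 64.4 and 85.4% from the lowest step to the highest, and so kept pace with Red1. Median Rec8 coverage was 0, 28.1, 42.0, 52.7 and 56.4%, so that the last step added little. The Rec8 share of Red1-covered sequence was 70.5, 78.1, 76.1, 72.1 and 61.5%, lowest in the 102 bins with over 80% Red1. The Hop1 share was 76.8, 85.0, 87.9, 89.3 and 89.7%.

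Within the dense bins alone, coverage by Red1 and Hop1 varied together more closely than either did with Rec8. Over the 279 bins, Spearman's rho was 0.629 for Red1 with Hop1 (Pearson's r 0.628), 0.148 for Red1 with Rec8 (r 0.169) and 0.198 for Hop1 with Rec8 (r 0.216). Over the 1923 other bins the same rho values were 0.915, 0.791 and 0.798. The range of Red1 coverage in dense bins is cut off at 60% by the rule, neighbouring bins share peaks, and Red1 and Hop1 share an input library. These correlations are descriptions across bins, which are not independent replicates.

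Peaks that touched dense bins were wider than the rest. Of the Red1 peaks, 307 touched a dense bin and had a median width of 3787 bp, against 1366 bp for the 1172 that touched none. Hop1 peaks measured 3443 bp (324 peaks) against 1398 bp (1105 peaks), and Rec8 peaks 2375 bp (340 peaks) against 1386 bp (1135 peaks). The width of Rec8 peaks thus differed less than that of Red1 and Hop1 peaks. A wide peak is more likely to touch any bin, so part of these differences follows from the count itself. Rec8 peaks were also called less strongly. The median −log10 q-value of peaks touching dense bins was 30.2 for Rec8, 146 for Red1 and 116 for Hop1. The Rec8 list came from 2 samples and the others from 4 each. How far this sets the narrower Rec8 peaks, the lower Rec8 coverage and the fewer boundaries they cross was not tested.

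Fold enrichment over input, averaged over each peak and weighted by the bp it covered in a bin, was slightly higher in dense bins, but not among Red1 peaks of like width. The medians per bin were 1.88 in dense bins and 1.70 in other bins for Red1, 1.87 and 1.65 for Hop1, and 1.80 and 1.70 for Rec8. Bins without a peak of the protein have no value and were left out. Of the 1923 other bins, 1363 had a value for Red1, 1358 for Hop1 and 1361 for Rec8. Hop1 enrichment was higher in dense bins on 12 of 13 chromosomes, all but IV. Rec8 enrichment was higher on 9 of 13, the exceptions being II, IV, X and XVI, and its upper quartile was 2.00 in dense bins and 2.08 in other bins. Among Red1 peaks of 2 to 4 kb, the median enrichment was 1.87-fold for the 114 that touched a dense bin and 2.01-fold for the 307 that touched none. It was 1.89-fold (116 peaks) and 2.03-fold (19 peaks) at 4 to 8 kb, and the order was the same in the narrower widths. The most enriched Red1 peaks that touched a dense bin were XI from 61097 to 64530 at 3.37-fold and XIV from 127808 to 130927 at 3.36-fold. Both lay wholly under Hop1 peaks, and Rec8 covered 57.7% of the peak on XI and 93.5% of the peak on XIV.

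Red1 summits, the points of local maximal enrichment from a separate call on the same libraries, were more frequent per kb of dense bin but sparser within Red1-covered sequence. Dense bins held 594 summits, or 0.426 per kb, and other bins 1561, or 0.162 per kb, with the higher density in dense bins on all 13 chromosomes. Per kb of Red1-covered sequence the densities were 0.552 in dense bins and 0.797 in other bins, with the lower density in dense bins on all 13 chromosomes. Red1-covered sequence is what chose the dense bins, and the summits come from the same libraries. The higher density per kb of bin and the lower density per covered kb are therefore each partly built into the rule. In Red1 peaks of like width the densities lay closer, at 0.599 per kb in peaks touching dense bins and 0.657 per kb in those touching none at 2 to 4 kb, and 0.549 and 0.582 per kb at 4 to 8 kb. Per kb of Rec8-covered sequence the densities lay close together, at 0.794 in dense bins and 0.808 in other bins. From the lowest step of Red1 coverage to the highest, summits numbered 1.11, 0.841, 0.674, 0.599 and 0.491 per Red1-covered kb.

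A dense bin typically held 1 to 3 summits. There were 77 dense bins with 1 summit, 103 with 2 and 68 with 3, while 23 had 4, 3 had 5 and 5 had none. Of all 2202 bins, 779 had 1 summit, 412 had 2, 137 had 3, 29 had 4, 5 had 5 and 840 had none. The dense bins without a summit, singled out after their values were seen, began at VII 465001, VIII 315001, X 570001, XI 545001 and XV 675001.

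Most summits lay on Rec8 peaks, and those off Rec8 had low scores. In dense bins 81.8% of summits were inside a Rec8 peak and 98.5% inside a Hop1 peak, against 88.5 and 95.2% in other bins. The median summit score was 344 for the 486 dense-bin summits inside Rec8 peaks and 45.9 for the 108 outside. In other bins it was 217 for the 1381 summits inside and 41.4 for the 180 outside. The gap between summits on and off Rec8 was thus present in both groups, and scores off Rec8 were similarly low in both.

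Dense bins formed 219 runs, a run being 1 or more consecutive dense bins. Of these 178 were single bins, 29 had 2 bins, 10 had 3, and 1 each had 5 and 8. The 41 runs of 2 or more bins held 101 dense bins (36.2%). Bins covered to 60% by Hop1 formed 217 runs with 33.1% of bins in runs of 2 or more, while those covered to 60% by Rec8 formed 156 runs with 19.7%. Of all bins, 12.7% passed this mark for Red1, 12.4% for Hop1 and 8.08% for Rec8. Rarer bins fall next to each other less often, and how far this sets the lower Rec8 share was not tested. The longest run was 8 bins for Red1, 8 for Hop1 and 4 for Rec8. Single Red1 peaks often joined the bins of a run: of the 60 boundaries between adjacent dense bins, a Red1 peak crossed 45 (75%), a Hop1 peak 43 (71.7%) and a Rec8 peak 26 (43.3%). Over all 2189 boundaries the shares were 25.9, 25.5 and 22.8%. Both bins at a boundary between dense bins were chosen for their Red1 coverage. Frequent crossing by Red1 peaks is therefore partly built into the rule.

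Dense bins in runs had more Hop1 and less Rec8 than dense bins that stood alone. Median Red1 coverage was 78.8% in runs of 2 or more and 72.3% in single bins, and median Hop1 coverage 77.1% in runs and 68.7% in single bins. Median Rec8 coverage was 47.0% in runs (quartiles 32.5 and 58.0%) and 59.7% in single bins (quartiles 46.2 and 69.8%). Rec8 reached 60% in 23 of the 101 bins in runs (22.8%) and in 86 of the 178 single bins (48.3%). The ranges of Rec8 coverage overlapped widely, from 0% upward in both groups.

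**Figure D2:**
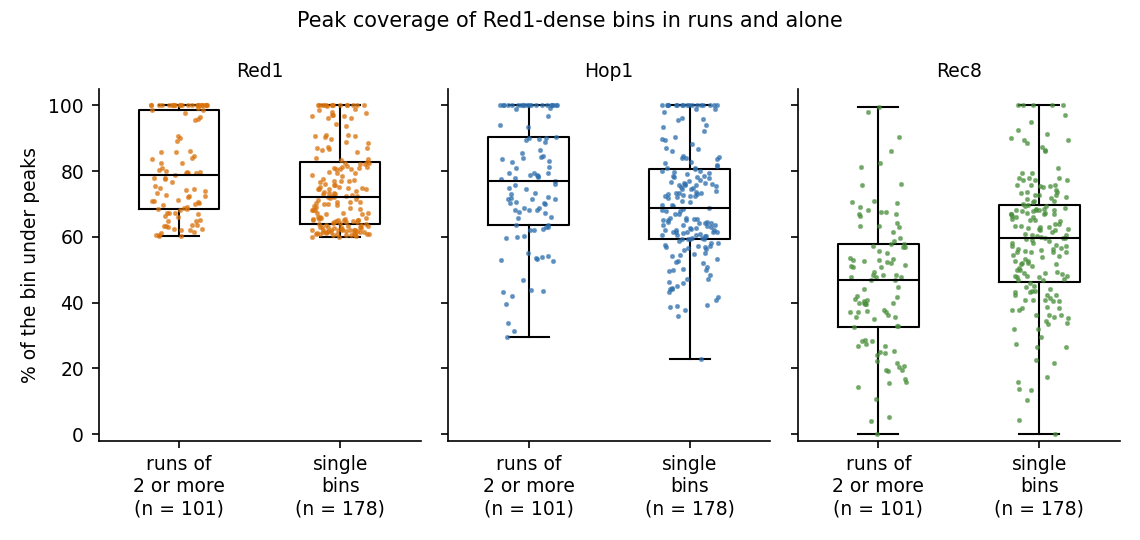
Each point is a dense bin in a run of 2 or more (n = 101) or standing alone (n = 178); the vertical axes give the % of the bin under Red1, Hop1 and Rec8 peaks, boxes show quartiles with the median, and whiskers the full range. Bins in runs had a Rec8 median of 47.0% and single bins 59.7%, while Hop1 medians were 77.1% in runs and 68.7% in single bins.

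The lower Rec8 coverage of runs was present within classes of Red1 coverage. Red1 medians were still somewhat higher in runs than in single bins, at 68.8 and 65.4% in the lower class and 100 and 90.9% in the upper. Among bins with 60 to 80% Red1, median Rec8 was 43.2% in runs (56 bins) and 57.2% in single bins (121 bins). Among those with 80 to 100% Red1 it was 50.8% in runs (45 bins) and 65.3% in single bins (57 bins). Of the 12 chromosomes with both kinds, 11 had the lower Rec8 median in runs, and XIV was the exception with 52.9% in runs and 40.3% in single bins. The Hop1 median was higher in runs on 9 of these 12. By run length, median Rec8 coverage was 59.7% for 1 bin, 47.9% for 2, 45.6% for 3 and 40% for 4 or more, and median Hop1 coverage 68.7, 72.6, 78.6 and 81.0% in the same order.

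The difference depended on where and how wide the bins were cut and on the protein used to choose bins. With the bins shifted by 2500 bp the Rec8 median was 53.2% in runs and 58.6% in single bins, a smaller gap. In 10000-bp bins the gap was gone, with a Rec8 median of 44.7% in runs and 44.1% in single bins. When bins were instead chosen on Rec8, those in runs likewise had less Red1, with a Red1 median of 50.2% in runs (35 bins) and 66.0% in single bins (143 bins). In that set Hop1 was lower in runs as well, at 42.4% in runs and 68.6% in single bins. Within Red1-covered sequence, Rec8 overlay 55.5% in runs and 74.7% in single bins, and Hop1 90.7% in runs and 88.8% in single bins. Summits numbered 0.392 per kb in runs and 0.445 per kb in single bins, and 71.7% of summits in runs lay inside a Rec8 peak, against 86.9% in single bins.

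The longest run covered 40 kb on chromosome VII, from 445001 to 485000. Along its 8 bins Red1 covered 90.6, 100, 100, 100, 100, 80.1, 80.3 and 100%. Hop1 followed at 93.4, 100, 76.2, 100, 100, 81.0, 79.5 and 90.4%. Rec8 covered 24.1, 15.8, 16.7, 86.2, 67.6, 28.6, 40 and 51.4%, so that Rec8 was high in the middle pair of bins and low in the first 3. The run held 14 summits, or 0.35 per kb, with 1 of the middle bins holding none. A single Red1 peak of 28539 bp, from 445469 to 474007, covered the first part at 2.14-fold enrichment, with 95.8% of it under Hop1 and 41.9% under Rec8. A second Red1 peak of 10106 bp, from 475988 to 486093, followed at 2.44-fold. Across the run there were 3 Hop1 peaks of 8498 to 16941 bp, but 9 Rec8 peaks of 465 to 5146 bp. Their −log10 q-values were 125 to 369 for Hop1 and 3.11 to 111 for Rec8, so some Rec8 peaks were weak calls.

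**Figure D3:**
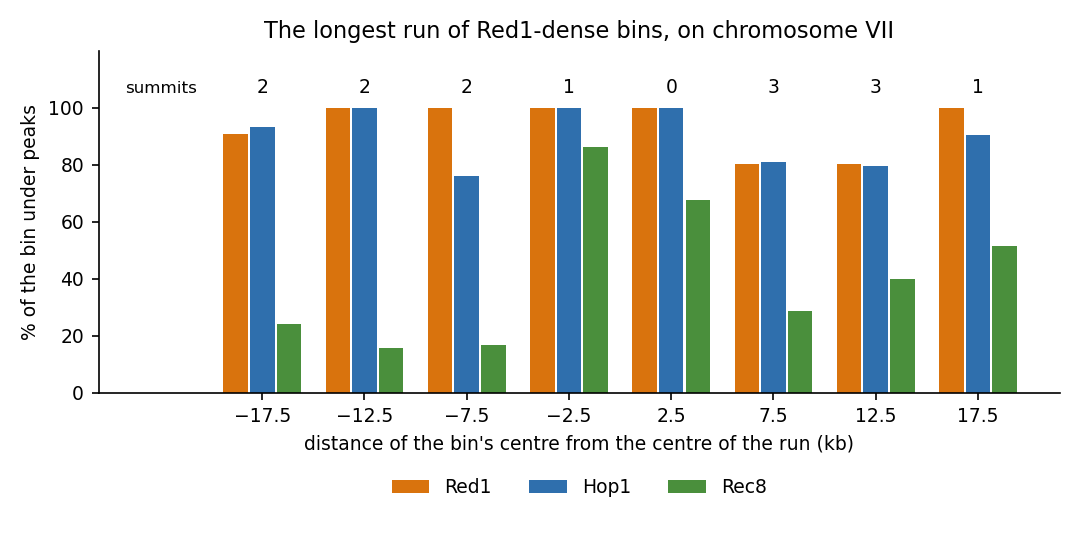
The horizontal axis gives the distance of each bin's centre from the centre of the longest run, on chromosome VII, in kb; bars give the % of the bin under Red1, Hop1 and Rec8 peaks, and the numbers above them the Red1 summits in the bin. Red1 covered 80.1 to 100% and Hop1 76.2 to 100% of each bin, whereas Rec8 covered between 15.8 and 86.2%.

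The next longest run had 5 bins, on XII from 125001 to 150000, with means of 70% under Red1, 71.6% under Hop1 and 49.1% under Rec8 and 9 summits. Of the runs of 3 bins, that with most Red1 was on IX from 330001 to 345000, where the means were 96.7, 89.8 and 61.7% in the same order. A Red1 peak of 15643 bp spanned nearly all of it, and it held only 4 summits. The runs on II from 740001 to 755000 (94.2, 84.1 and 46.9%) and on XIV from 675001 to 690000 (91.6, 91.6 and 70.6%) came next. The remaining 7 runs of 3 bins had mean Rec8 coverage of 21.5 to 60.8%, the least on XV from 760001 to 775000 and the most on IV from 1225001 to 1240000. Long runs thus ranged from Rec8-poor to Rec8-rich.

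Of the 38 bins wholly under Red1, the 3 with the highest Red1 enrichment were XV from 170001 to 175000, XV from 175001 to 180000 and VII from 480001 to 485000. Hop1 covered 100, 100 and 90.4% of these bins, and Rec8 28.4, 53.5 and 51.4%. Complete Red1 coverage thus did not go with complete Rec8 coverage in these bins.

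Dense bins were present on every longer chromosome. They made up 7.83% of the bins of V (9 of 115) and 8.05% of those of IV (24 of 298), the lowest shares, and 17.3% of VIII (18 of 104) and 19.8% of IX (17 of 86), the highest.

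**Figure D4:**
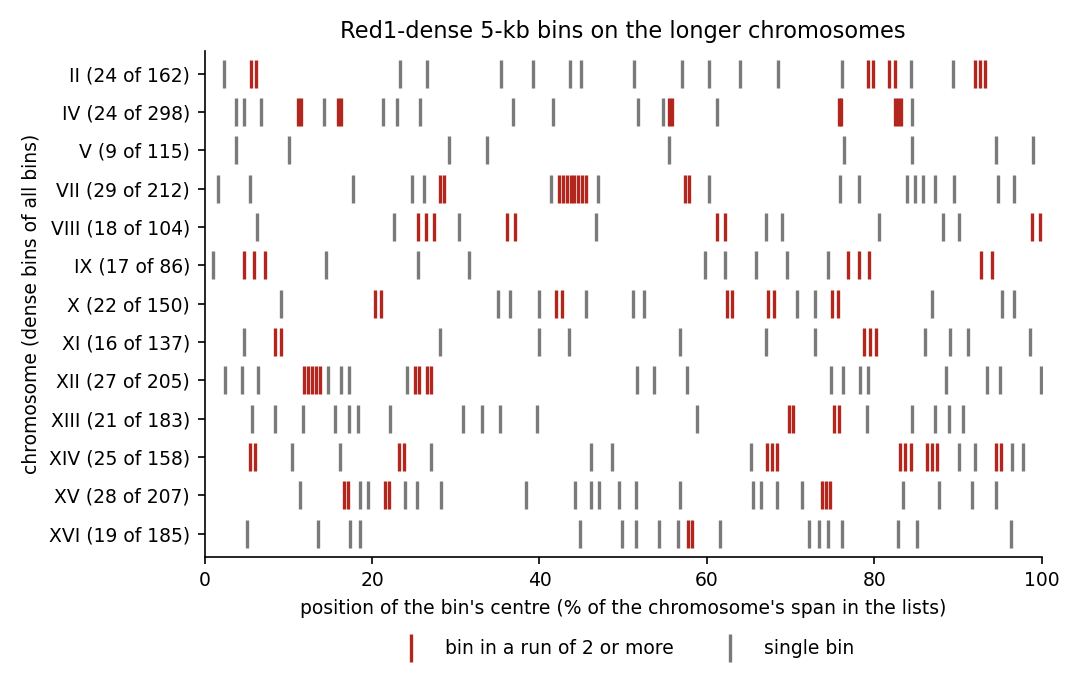
Each tick is a dense bin, placed by its centre as a % of the way from the first to the last peak of any list on that chromosome, with bins in runs of 2 or more in red and single bins in grey; labels give the number of dense bins of all bins. Dense bins were spread along all 13 chromosomes, from 9 of 115 bins on V to 17 of 86 on IX.

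Dense bins had other dense bins close by somewhat more often than bins at large. A bin 5 kb from a dense bin was dense in 21.6% of cases, and the share was 16.6% at 10 kb, 15.9% at 15 kb, 17.8% at 20 kb, 19.6% at 25 kb, 15.3% at 30 kb, 14.4% at 35 kb and 13.4% at 40 kb, where 12.7% of all bins were dense. Between neighbouring runs lay 206 gaps with a median of 25 kb (quartiles 10 and 53.75 kb), of which 27 were of 1 bin. The longest gap between runs was 245 kb on XII, from 285001 to 530000. Red1 covered 19.9% of it, Hop1 19.2% and Rec8 18.8%, so peaks of all 3 proteins continued through the gap.

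Coverage fell off within a few kb of the edge of a run, and the fall was alike for the 3 proteins. In the kb centred 2.5 kb inside the edge, Red1 covered 88.5%, Hop1 82.7% and Rec8 67.0%, and in the kb just outside 35.7, 35.5 and 25.6%. The lowest coverage was reached 2.5 kb outside, at 14.1, 14.5 and 10.4%, and by 19.5 kb it was 32.6, 29.7 and 25.7%. The bin outside an edge is below 60% by the rule, and in single bins the middle kb is counted from both edges. Averaged over whole non-dense bins, Rec8 covered 16% of the bins next to a run, 18.5% of those 2 bins away and 21.5% of those 6 or more away. Red1 covered 21.7, 20.3 and 19.1% of the same bins, and Hop1 21.0, 20.1 and 18.6%. Bins next to a run thus had less Rec8 than distant bins but not less Red1 or Hop1.

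**Figure D5:**
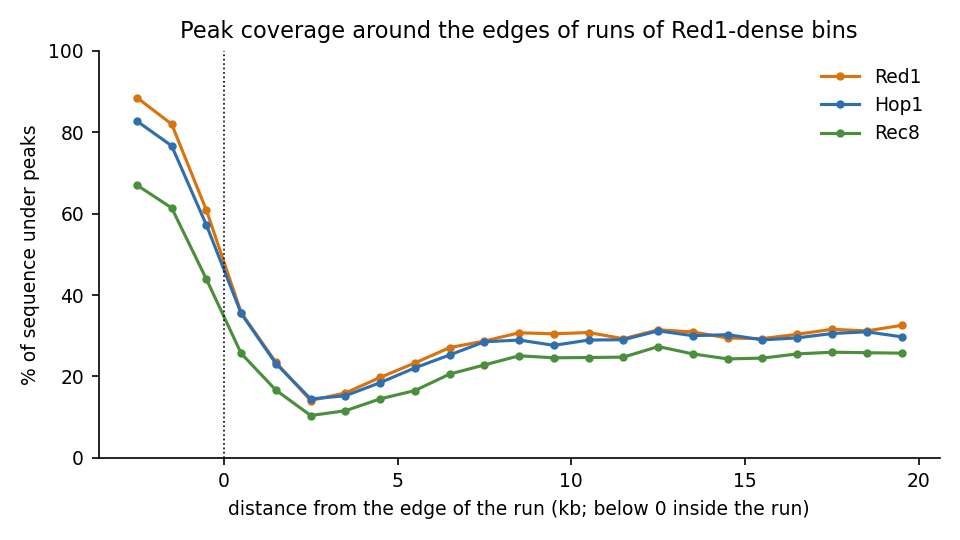
The horizontal axis gives the distance in kb from the edge of a run of dense bins, negative inside, and the vertical axis the % of sequence in each 1-kb step under Red1, Hop1 and Rec8 peaks. Red1 covered 88.5% of sequence 2.5 kb inside the edge and 14.1% of that 2.5 kb outside, with Hop1 close to it and Rec8 below both.

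The same rule gave 75 dense bins of 170 (44.1%) on the short chromosomes I, III and VI. Dense bins of the longer chromosomes lay in runs of 2 or more less often, in 36.2% of cases against 82.7% on the short chromosomes. Dense bins were also rarer on the longer chromosomes, at 12.7% of bins, and rarer bins fall next to each other less often. How much of the difference in runs follows from this was not tested. Within classes of Red1 coverage, dense bins of the longer chromosomes were also less covered by Hop1 and more by Rec8 than those of the short chromosomes. Red1 was not fully matched within the classes. Its median was 67.1% on the longer and 72.95% on the short chromosomes at 60 to 80%, and 96.5% and 100% at 80 to 100%. With 60 to 80% Red1, the Hop1 median was 64.4% on the longer and 78.0% on the short chromosomes (24 bins), and the Rec8 median 52.7% and 38.3%. With 80 to 100% Red1, the Hop1 median was 85.4% on the longer (102 bins) and 100% on the short chromosomes (51 bins), and the Rec8 median 56.4% and 44.3%.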

How the data were processed

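Wild-type SK1 cells were harvested 3 h after meiotic induction for ChIP-seq of Red1, Hop1 and Rec8. The authors mapped reads to the SK1 genome with Bowtie, extended them to 200 bp, removed PCR duplicates, combined the replicates and called broad peaks with MACS2 2.1.1 against input. The deposited lists hold each peak's position (converted here to count from 1), the authors' fold enrichment over input averaged over each peak, a −log10 q-value, and a score made from it. Each summit of the deposited list carries a score by the authors, at least 20.0, whose kind is not given in the sources used here. Broad calling merges nearby enriched stretches, so the covered share depends on the caller's settings.

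Peak coverage per 5000-bp bin, runs, fold enrichment and summits were computed with Python 3.11.15, NumPy 2.4.6, SciPy 1.17.1 and pandas 2.3.3. Coverage, overlap of Hop1 and Rec8 with Red1, summit counts per bin, and the numbers of dense bins and runs were tested on simulated data. Fold enrichment and the other measures were not. Bins ran from coordinate 0 to the last peak in any list, and the true chromosome ends were not used. Members and measures were chosen with earlier results of these data known. Named regions were all runs of 4 or more bins and at least the 5 longest, the 3 bins of highest Red1, of lowest Hop1 and of lowest Rec8, the 2 bins either side of the threshold and the 2 most enriched Red1 peaks. Other named regions are marked in the text or were all members of a stated set. The transcript table was not used because its gene identifiers carry no positions. The reference given was S288C, and intervals on 5 chromosomes reach past its ends, so no sequence or annotation was taken from it. The labels left 3 samples without a group. Alternatives were other thresholds, bin sizes, peak filters, trimmed peaks, end exclusions and inclusion of all chromosomes.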

Additional observations from a re-analysis of the deposited data

How the results depend on the processing

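Each protein had 1 list made from its combined samples, so leaving out a replicate was not possible, and depth is unknown. No paired analysis was possible because no list of a single replicate was used. Of 102 values under 13 alternatives, 70 stayed near the reported value. For counts of bins and runs, near means within 1.5 times that value. For the rest, it means within the value's 95% interval over bins or summits (binomial, order-statistic or Poisson). The Rec8 share of Red1-covered sequence was given a binomial interval with bins as units, although it is a share of bp. The intervals also treat neighbouring bins, which share peaks, as independent, so they serve only as a rough mark of nearness. Shifting the bins by 2500 bp, requiring a −log10 q-value of at least 5, cutting the last bin, leaving out 20 kb at the first and last peaks or leaving out chromosome VII, which held the most dense bins, left all 9 summary values of the dense bins near, although the shift narrowed the Rec8 gap between runs (53.2%) and single bins (58.6%). With Red1 at 50% or more there were 446 bins in 330 runs, with a Hop1 median of 62.1% and Hop1 and Rec8 at 60% in 54.9% and 30.5% of them. With 70% there were 170 bins in 138 runs, a Hop1 median of 79.1% and Hop1 at 60% in 85.3%. Bins of 2500 bp gave 901 dense bins in 630 runs, 49.8% of them in runs of 2 or more, with medians of 80.4% Hop1 and 68.6% Rec8, Hop1 and Rec8 at 60% in 83.4% and 63.6%, 0.514 summits per kb and Rec8 on 74.6% of Red1-covered sequence. Bins of 10000 bp gave 76 in 61 runs, with medians of 66.5% Hop1 and 44.2% Rec8, Rec8 at 60% in 15.8%, 0.387 summits per kb and Rec8 on 61.3% of Red1-covered sequence. Trimming 200 bp from both ends of Red1 peaks gave 190 bins, a Hop1 median of 77.0% and Hop1 at 60% in 83.7%. With all 16 chromosomes there were 354 dense bins, 46.0% of them in runs, with a Hop1 median of 75.7%. Counting only summits above the median score gave 0.224 per kb. With a mark of 40%, Hop1 passed in 96.4% and Rec8 in 75.6% of dense bins. Counts of bins and runs follow from the size and threshold of the bins, and the cause of the other differences was not tested.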
